A study of Mus musculus with 81 samples.

Results

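The Bcl2 family genes described here are 10 genes taken by their symbols from a table of 51826 genes. Of these, 4 encode survival proteins (Bcl2, Bcl2l1, Mcl1 and Bcl2l2), 1 encodes a pore-forming effector (Bak1) and 5 encode BH3-only proteins (Bcl2l11, Bid, Bad, Bmf and Bik). All 10 were present in the table and all 10 passed the filter on low counts in each fit. They were measured by bulk RNA sequencing in 81 libraries from the thymic tissue of 40 mice of the strain C57BL/6 x 129S4Sv/Jae. Every animal, the controls included, carried Plk4(Col1a1), rtTA(Rosa) and also centrin-GFP(Rosa). With these alleles doxycycline switches on Plk4, a kinase of centriole duplication, and the centrin reporter marks centrosomes.

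The controls were 8 normal thymuses from p53+/+ mice that received no doxycycline. The lymphomas came from 10 p53-/- mice that received none either (23 libraries), from 9 p53-/- mice treated with doxycycline (18 libraries) and from 12 treated p53+/- mice (31 libraries). Treatment lasted 2 weeks and began at an age of 30 days, and the labels give no age at which tissue was taken. These groups are called the untreated p53-/-, the treated p53-/- and the treated p53+/- lymphomas below, and 3 values in a row for lymphomas follow this order. One further normal thymus, from an untreated p53+/- animal (mouse 819), entered the tests only in 1 alternative fit. In 13 tumours, called multifocal here, 4 or 5 biopsies were sequenced separately (54 libraries), and the other 18 lymphomas gave 1 biopsy each. The labels name no promoter or Cre that would limit the p53 alleles to a cell type, and no untreated p53+/- lymphoma was analysed here. Each mouse is 1 replicate, with its biopsies summed.

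The Bcl2 family decides whether the outer membrane of the mitochondrion is opened, the step that releases cytochrome c and starts the caspases in the intrinsic pathway of apoptosis. Survival proteins hold the effectors Bak1 and Bax in check, and BH3-only proteins block the survival proteins or activate the effectors directly. In the thymus these proteins set the fate of developing T cells: Bcl2l1 sustains the abundant CD4+CD8+ thymocytes, Mcl1 is needed at many stages of lymphocyte life, and Bcl2l11 (Bim) carries out the deletion of self-reactive cells. Death of lymphoid cells after p53 activation runs largely through the p53 targets Bbc3 and Pmaip1, which are BH3-only genes as well.

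Bases upstream of the start site are shown for the survival gene Bcl2 and for the BH3-only genes Bcl2l11 and Bid, because these genes moved in opposite directions in the comparisons below. Each window holds the 250 bases before the start in RefSeq, build GRCm38.p6, written 5′ to 3′ on the strand of the gene. Capitals mark matches, on either strand, to the GC box GGGCGG (bound by Sp1), the forkhead sequence GTAAACA (bound by Foxo proteins), the E-box CACGTG (Myc), the cAMP response element TGACGTCA and the Runx sequence TGTGGTT. The windows lie at chr1:106714291-106714540 (minus strand, Bcl2), chr2:128125788-128126037 (plus strand, Bcl2l11) and chr6:120916825-120917074 (minus strand, Bid).
Bcl2: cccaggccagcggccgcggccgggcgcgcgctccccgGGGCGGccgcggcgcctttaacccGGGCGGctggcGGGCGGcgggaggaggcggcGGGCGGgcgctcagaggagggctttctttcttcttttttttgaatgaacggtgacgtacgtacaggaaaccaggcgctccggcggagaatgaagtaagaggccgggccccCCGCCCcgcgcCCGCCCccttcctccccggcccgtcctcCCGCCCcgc
Bcl2l11: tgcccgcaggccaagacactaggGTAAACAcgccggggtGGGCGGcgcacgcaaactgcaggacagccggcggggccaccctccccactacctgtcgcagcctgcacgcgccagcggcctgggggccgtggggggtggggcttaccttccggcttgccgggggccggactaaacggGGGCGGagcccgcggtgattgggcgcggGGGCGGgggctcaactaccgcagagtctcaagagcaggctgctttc
Bid: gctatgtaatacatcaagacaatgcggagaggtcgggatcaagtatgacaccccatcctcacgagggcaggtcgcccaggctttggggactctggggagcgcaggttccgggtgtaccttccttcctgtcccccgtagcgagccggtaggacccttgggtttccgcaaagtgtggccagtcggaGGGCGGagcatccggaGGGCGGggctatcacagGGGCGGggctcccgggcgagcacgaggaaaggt
The Bcl2 window held 7 GC boxes, the Bid window 3, and the Bcl2l11 window 3 GC boxes with 1 forkhead match near its distal end. Among 32851 windows of the same length in the table, 32.7% held a GC box and 3.17% the forkhead sequence. Windows were matched for 9 of the 10 genes, all but Bik. Of the other 6, Mcl1 and Bcl2l2 held 1 GC box each, Bad held 3, Bak1 held 1 Runx match (4.396% of windows) and Bcl2l1 and Bmf held no match. Only 1 window per gene was searched, while 3 promoters were listed for Bcl2l1 and for Bmf and 2 for Bcl2l11 and for Bad. The start used for Bak1 lay inside the annotated gene, 382 bases from its first base. No match to the E-box (6.02% of windows) or the cAMP response element (1.55%) was found in any of the 9. A match is a run of letters and was not tested as a binding site.

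Library totals lay between 1.03 M and 26.87 M counts, and the 2 shallowest libraries were both of treated p53-/- mouse 857. In 3 lymphoma mice (328, 869 and 870) the expression of sex-linked genes went against the labelled sex. The tissue labels were checked against summed marker genes, in CPM (counts scaled to library size, with TMM factors). The sum over 9 T-lineage genes (such as Cd3e and Lck) was 890 to 5931 in normal thymuses with a median of 5067, and its medians in the lymphoma groups were 3555, 4599 and 4373. A pair of mice stood apart. Normal mouse 387 had the lowest T-lineage sum of its group (890) with 1535 CPM of B-lineage genes, against a group median of 124, and 9915 CPM of fat genes, against 2133. Untreated p53-/- lymphoma mouse 881 had a T-lineage sum of 344 and a B-lineage sum of 3969, with 2431 CPM or more of B-lineage genes in each of its 4 biopsies, so this tumour, labelled a thymic lymphoma, had far more B-lineage than T-lineage marker expression. Results on the members that change without these mice are also given without them. The sum over 9 thymic epithelial genes was 1603 CPM (median) in normal thymuses and 82.7, 63.9 and 52.4 in the 3 lymphoma groups, and the sum over 6 fat genes was 2133 against 53.9, 76.3 and 65.4. The B-lineage sum was 124 (median) against 36.1, 22.6 and 33.4, with 0, 7 and 6 of its 8 genes called lower. Normal thymus and lymphoma thus differed in these markers of other cells as well as in genotype. The part of the markers in the results below was not tested, and in bulk samples fewer cells of a type and less RNA per cell cannot be told apart.

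In normal thymus the family was led by Mcl1. Levels of different genes are compared here only after division by exon length, as CPM per kb. Medians over the 8 normal thymuses were 104.6 for Mcl1, 40.2 for Bcl2l1, 25.3 for Bak1, 17.4 for Bmf, 15.2 for Bid, 8.61 for Bad, 8.45 for Bcl2l11, 5.21 for Bcl2, 4.54 for Bcl2l2 and 0.819 for Bik. Mcl1 stood clear of every other member, since its lowest normal thymus (82.5) was above the highest Bcl2l1 value (53.996). From Bcl2l1 down to Bcl2l2 each member overlapped its next neighbour in range, and Bik lay below them all. Without mouse 387 the lowest Bcl2l1 value (36.2) was above the highest Bak1 value (33.9), and the other overlaps stayed. In the 3 lymphoma groups Mcl1 was again first, at 66.7, 58.6 and 69.99 CPM per kb, and Bak1 second, at 28.7, 30.0 and 34.9. Bid came next at 25.3, 28.3 and 25.98, whereas Bcl2l1, which followed Mcl1 in normal thymus, stood at ranks 6, 5 and 6 with 7.83, 12.9 and 12.7. The level of Bid per kb depends on the exon length. Over all annotated exons it was 9.39 CPM per kb in normal thymus and 15.6, 17.5 and 16.03 in the lymphoma groups, close to Bmf (15.5 in untreated p53-/-) and Bcl2l11 (15.7 in treated p53+/- lymphomas).

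The question of the main comparisons was how each lymphoma group differed from normal thymus. With edgeR's quasi-likelihood test over 17843 genes, members with a Benjamini-Hochberg adjusted p under 0.05 were called. In untreated p53-/- lymphomas 1 of the 10 members rose and 3 fell, where 23.2% of all genes tested rose and 17.5% fell. In treated p53-/- lymphomas 1 rose and 5 fell, against 25.4% and 26.6% of all genes. In treated p53+/- lymphomas 2 rose and 4 fell, against 25.6% and 25.3%. The median log2 fold change of the 10 members was -0.15, -0.61 and -0.29 in that order, and that of all genes 0.08, -0.04 and -0.00. This background moved with normal mouse 387. Without it the median over all genes was 0.21, 0.10 and 0.15, and of 18044 genes 4670, 5013 and 4975 rose and 2595, 3751 and 3320 fell, in place of 4138, 4537 and 4568 against 3131, 4755 and 4512. Without scaling factors 3781 rose and 4883 fell in treated p53+/- lymphomas. Called in all 3 groups were 4 members, of which Bcl2, Bcl2l1 and Mcl1 fell and Bid rose, and 3 members (Bak1, Bmf and Bik) were called in none, although each passed in 1 or more groups under some of the 16 alternatives. The 3 contrasts share the same normal thymuses. The share of all genes called in all 3 was not counted, so the 4 members have no such background here. Without lymphoma mouse 881 the count in untreated p53-/- lymphomas became 7 (3 rose, 4 fell) as Bcl2l2, Bcl2l11 and Bik passed, and without mice 387 and 881 together it was 5 (2 rose, 3 fell). The 3 that fell without both mice were Bcl2, Bcl2l1 and Mcl1.

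**Figure D1:**
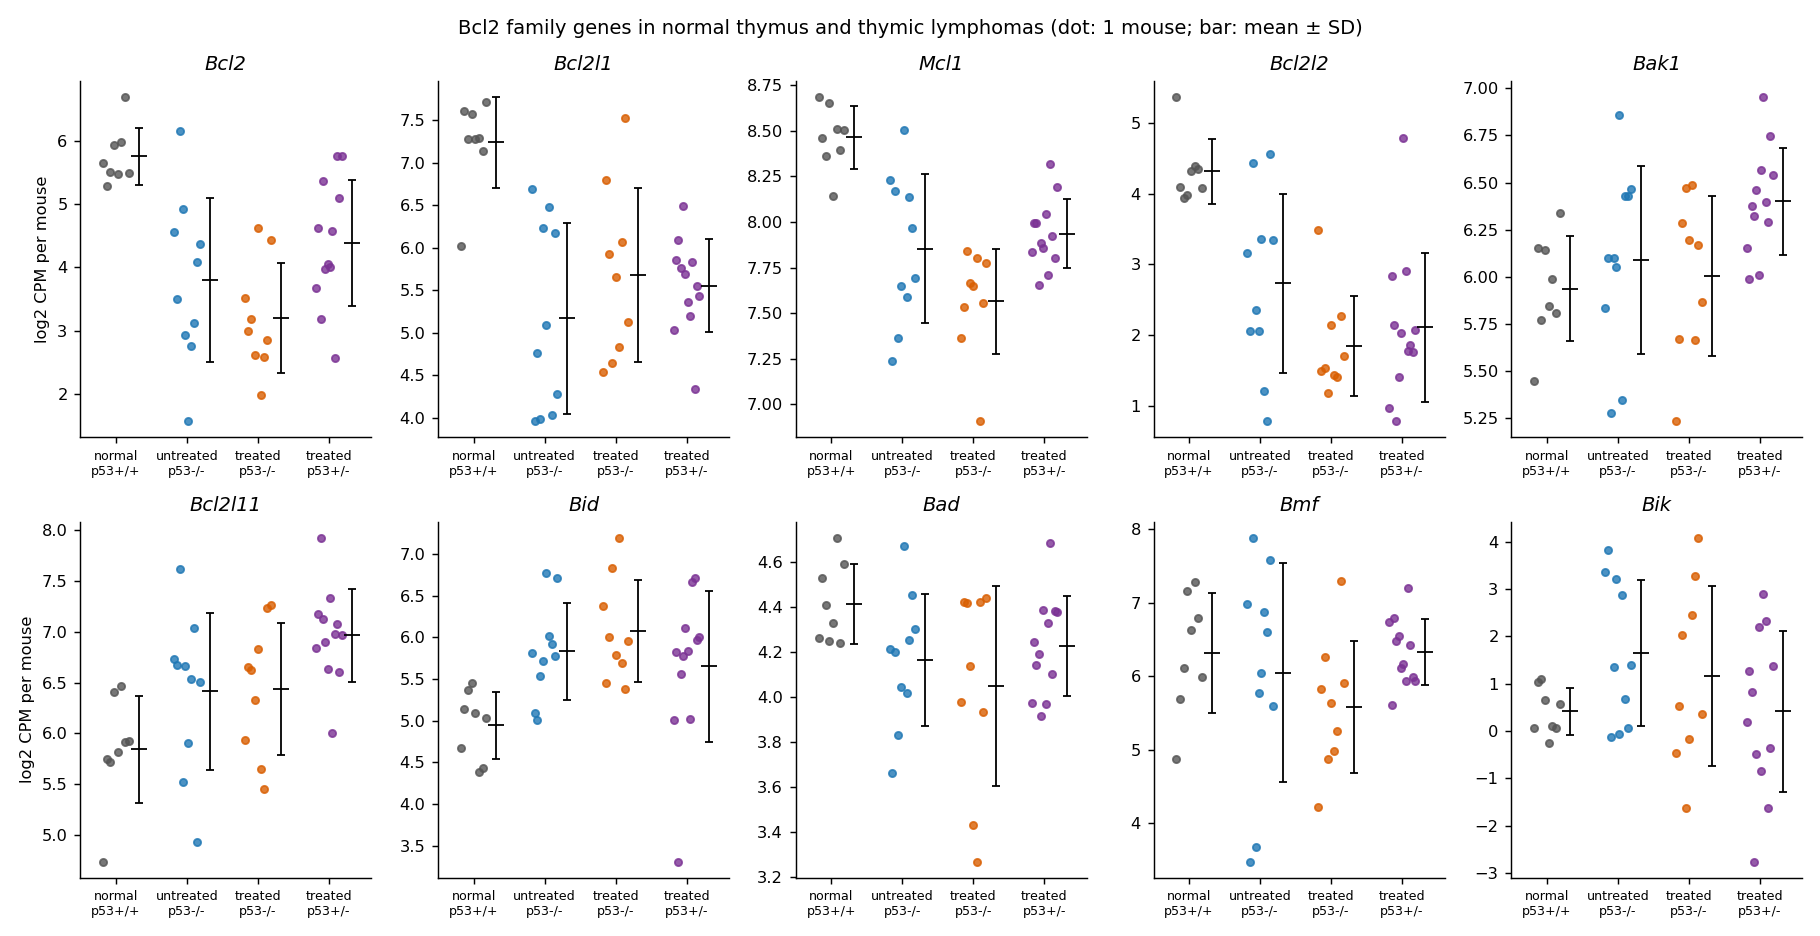
Level of each of the 10 genes in log2 CPM (vertical axes, each with its own range) for every mouse of the 4 groups (dots), with the group mean and SD (bars). The dots of Bcl2, Bcl2l1, Mcl1 and Bcl2l2 lie mostly below those of normal thymus, those of Bid mostly above, and Bik spreads over both sides.

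Bcl2, the founding survival gene and a protector of mature lymphocytes, fell in all 3 lymphoma groups (ENSMUSG00000057329, chromosome 1, 106538178 to 106714274, minus strand, GRCm38). Normal thymuses had 39.1 CPM at the lowest, 47.7 at the median and 102.9 at the highest. Untreated p53-/- lymphomas ranged from 2.92 over a median of 14.1 to 71.3 CPM, treated p53-/- lymphomas from 3.89 over 7.96 to 24.6, and treated p53+/- lymphomas from 5.91 over 20.1 to 54.1. Of the 31 lymphomas 27 lay below every normal thymus, and the 4 that overlapped were 1 untreated p53-/- tumour (mouse 157, the highest) and 3 treated p53+/- tumours. The level was 2.997-fold lower in untreated p53-/- (log2 fold change -1.58, SE 0.46, edgeR adjusted p = 0.00539), 5.72-fold lower in treated p53-/- (-2.52, SE 0.48, adjusted p = 4.82e-05) and 2.48-fold lower in treated p53+/- lymphomas (-1.31, SE 0.43, adjusted p = 0.0109). With only the lowest-numbered biopsy of each multifocal tumour the call in treated p53+/- lymphomas was lost (-0.97, adjusted p = 0.0794). The exons of Bcl2 overlap an antisense gene, D630008O14Rik, which had at most 0.355 CPM in any mouse of these groups.

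Bcl2l1, whose main product Bcl-xL keeps CD4+CD8+ thymocytes alive, also fell in all 3 groups (ENSMUSG00000007659, chromosome 2, 152780668 to 152831728, minus strand). Normal thymuses had a median of 156.4 CPM and a highest value of 210.0, and their lowest, 64.8, was mouse 387, the next being 140.9. Untreated p53-/- lymphomas ranged from 15.5 over a median of 30.5 to 103.4 CPM, treated p53-/- from 23.1 over 50.4 to 184.2, and treated p53+/- from 20.2 over 49.3 to 90.3. Below every normal thymus lay 22 of 31 lymphomas, and below the 7 normal thymuses other than mouse 387 lay 30, the exception being treated p53-/- mouse 869, 1 of the 3 mice whose sex genes went against the label. The log2 fold changes were -1.81, -1.39 and -1.81, with SEs of 0.40, 0.40 and 0.38 (edgeR adjusted p = 0.000407, 0.00389 and 0.000138). A gene-level count does not separate Bcl-xL from the shorter, death-promoting splice form of the gene.

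Mcl1, a short-lived survival protein, had the smallest fall of the survival genes and the least scatter among them (ENSMUSG00000038612, chromosome 3, 95658788 to 95663176, plus strand). Normal thymuses had 282.2 to 411.1 CPM with a median of 357.6. Untreated p53-/- lymphomas ranged from 151.0 to 362.6 CPM (median 228.1), treated p53-/- from 120.1 to 229.4 (median 200.6) and treated p53+/- from 201.2 to 318.5 (median 239.4). All 9 treated p53-/- tumours, 10 of 12 treated p53+/- and 7 of 10 untreated p53-/- tumours were below every normal thymus. Its log2 fold changes were -0.63, -0.98 and -0.66, with SEs of 0.14, 0.14 and 0.13, and edgeR gave adjusted p-values of 0.000604, 7.08e-07 and 0.000105. In normal mouse 387, where Bcl2l1 was lowest, Mcl1 was the highest of the normal group.

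Bcl2l2 encodes Bcl-w, a survival protein best known from testis and from resting or nerve cells (ENSMUSG00000089682, chromosome 14, 54883377 to 54888234, plus strand). Normal thymuses had 15.3 CPM at the lowest, 18.5 at the median and 41.2 at the highest, again in mouse 387, with the next at 20.97. The medians were 6.96 CPM in untreated p53-/- (1.66 to 23.6), 2.82 in treated p53-/- (2.19 to 11.1) and 3.78 in treated p53+/- lymphomas (1.66 to 27.5), and 28 of 31 lymphomas were below every normal thymus. The other 3 were above the 7 normal thymuses without mouse 387. It fell 5.80-fold in treated p53-/- (log2 fold change -2.54, SE 0.50, edgeR adjusted p = 7.21e-05) and 4.22-fold in treated p53+/- lymphomas (-2.08, SE 0.45, adjusted p = 0.00024). In untreated p53-/- lymphomas the value was -1.10 (SE 0.49, adjusted p = 0.0681), and it was -1.39 (adjusted p = 0.0193) without mouse 881, whose 23.6 CPM was the highest of that group. Without mice 387 and 881 together Bcl2l2 did not pass in untreated p53-/- lymphomas. A readthrough gene on the same strand, Gm20521, shares exons with Bcl2l2 and had at most 0.985 CPM in any mouse of these groups. The estimate for Bcl2l2 was fractional in 28.4% of libraries.

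**Figure D2:**
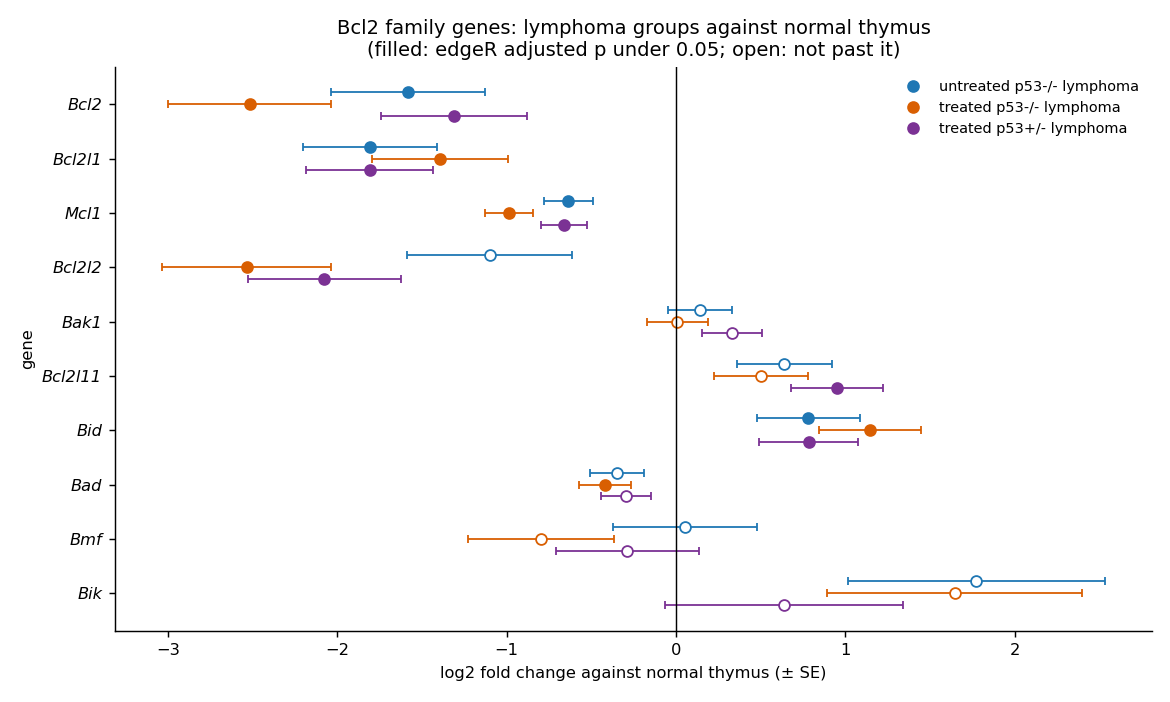
Log2 fold change of each gene (rows) in the 3 lymphoma groups against normal thymus, with its SE (horizontal axis), filled where the edgeR adjusted p was under 0.05. The survival genes lie between -2.54 and -0.63, Bid between 0.78 and 1.15, and Bak1 within 0.01 to 0.33.

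As a share of the summed CPM per kb of the 4 survival genes, Mcl1 had a median of 65.8% in normal thymuses and of 82.8%, 79.5% and 80.5% in the lymphoma groups. Bcl2l1 had 27.7% in normal thymuses and 7.67%, 17.2% and 14.02% in the lymphoma groups. Mcl1 was the highest of the 4 genes in 8 of 8, 10 of 10, 9 of 9 and 12 of 12 mice. Its lowest share in any mouse, 52.7%, was in the treated p53-/- tumour of mouse 869, whose Bcl2l1 share of 45.4% was the highest. The highest share in any mouse was 7.47% for Bcl2 and 6.999% for Bcl2l2. Exon lengths taken over all annotated transcripts in place of the basic set gave Mcl1 medians of 68.7%, 84.0%, 81.9% and 82.5%. These shares describe RNA and not protein, and the higher share of Mcl1 in lymphomas went with a lower level of Mcl1.

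**Figure D3:**
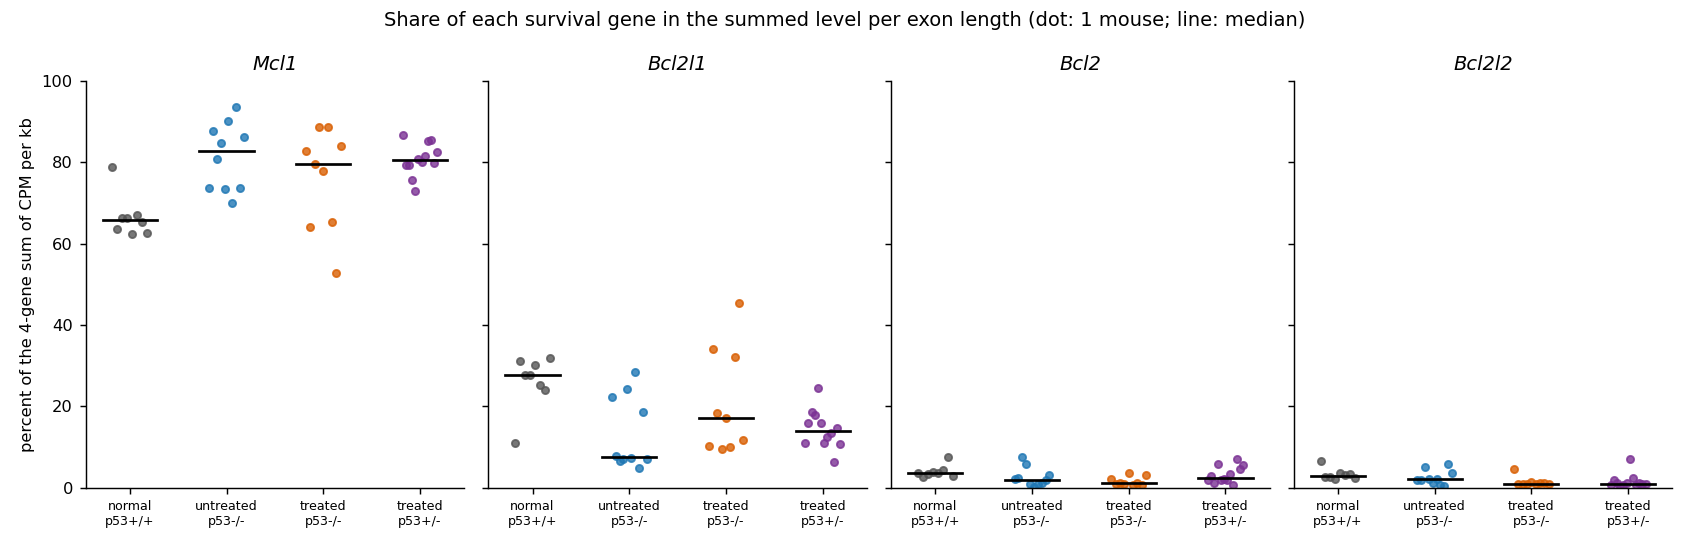
Share of Mcl1, Bcl2l1, Bcl2 and Bcl2l2 in their summed CPM per kb (vertical axis, percent) for each mouse (dots), with the group median (lines). Mcl1 lies above 52% in every mouse, and the median of Bcl2l1 is 27.7% in normal thymus and 7.67% to 17.2% in the lymphoma groups.

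Bak1 forms the pore in the mitochondrial membrane, and its level did not pass the main test in any group (ENSMUSG00000057789, chromosome 17, 27019810 to 27029009, minus strand). Normal thymuses had 43.5 to 80.96 CPM (median 60.4). The medians were 68.5 CPM in untreated p53-/- (38.7 to 116.2), 71.8 in treated p53-/- (37.6 to 89.6) and 83.5 in treated p53+/- lymphomas (63.3 to 123.9). Of the 31 lymphomas 13 were above and 3 below every normal thymus, and the others overlapped. The lowest normal value was that of mouse 387, and 5 lymphomas were below the other 7 normal thymuses. The log2 fold changes were 0.14, 0.01 and 0.33, with SEs of 0.19, 0.18 and 0.18 (edgeR adjusted p = 0.575, 0.973 and 0.114). In treated p53+/- lymphomas it passed under 3 of 16 alternatives, with the low-count filter set by the design matrix (0.47, adjusted p = 0.0265), without the mice whose sex genes went against the label (0.44, adjusted p = 0.0477) and with only the 2 groups compared (0.37, adjusted p = 0.0143). Bax, the other effector, was close to 0 too, at -0.06, -0.05 and 0.09. Bak1 exons overlap those of Ggnbp1 on the opposite strand (median 5.81 CPM in normal thymuses), and 95.1% of libraries had a fractional estimate for Bak1. Whether counting used the strand is not given in the sources used here, so reads of the overlapping exons may have been divided between these genes.

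Of the BH3-only genes, Bid and Bcl2l11 were the 2 that rose in any group. Bid, which caspase-8 cuts to link death receptors to mitochondria, lies on chromosome 6 (ENSMUSG00000004446, 120891930 to 120916853, minus strand). Normal thymuses had 20.9 CPM at the lowest, 33.4 at the median and 43.6 at the highest. The medians were 55.3 CPM in untreated p53-/- (32.1 to 108.8), 61.98 in treated p53-/- (41.6 to 146.1) and 56.9 in treated p53+/- lymphomas (9.85 to 104.4). Above every normal thymus lay 25 of 31 lymphomas and below all of them 1, treated p53+/- mouse 266, whose stromal and endothelial marker sum (2674 CPM) was the highest of the lymphomas. Bid rose by log2 fold changes of 0.78, 1.15 and 0.78, with SEs of 0.31, 0.30 and 0.29 (edgeR adjusted p = 0.0389, 0.00193 and 0.0238).

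The call for Bid in treated p53-/- lymphomas held under each of the 16 alternatives tried, and the other calls did not. In untreated p53-/- lymphomas it was lost without scaling factors (0.64, adjusted p = 0.106), without a filter on low counts (0.80, adjusted p = 0.0575) and in single-biopsy tumours (0.77, adjusted p = 0.0727). In treated p53+/- lymphomas it was lost without scaling factors (0.67, adjusted p = 0.0612) and in single-biopsy tumours (0.49, adjusted p = 0.231). Bid overlaps Bcl2l13, a family relative on the opposite strand, and 85.2% of libraries had a fractional estimate for Bid. Bcl2l13 itself had medians of 65.2 CPM in normal thymuses and 86.4, 78.4 and 69.7 in the lymphoma groups, with log2 fold changes of 0.32 (edgeR adjusted p = 0.0444), 0.19 (0.215) and 0.08 (0.610).

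Bcl2l11 encodes Bim, which binds all the survival proteins (ENSMUSG00000027381, chromosome 2, 128126038 to 128162547, plus strand). Normal thymuses had a median of 58.3 CPM and a highest value of 88.1, and the lowest was mouse 387 at 26.6, followed by 52.6. Treated p53+/- lymphomas had 64.2 to 242.9 CPM (median 125.7), and 11 of 12 were above every normal thymus. Untreated p53-/- lymphomas had 30.5 to 196.7 (median 97.2) and treated p53-/- lymphomas 43.9 to 153.3 (median 98.8), with 7 of 10 and 5 of 9 above every normal thymus. None of the lymphomas was below every normal thymus, and 4 were below the 7 without mouse 387. Bcl2l11 rose 1.93-fold in treated p53+/- lymphomas (log2 fold change 0.95, SE 0.27, edgeR adjusted p = 0.00406), and the values in the others were 0.64 (SE 0.28, adjusted p = 0.0668) and 0.50 (SE 0.28, adjusted p = 0.13). The lowest lymphoma of all was mouse 881, and without it the untreated p53-/- group passed (0.74, adjusted p = 0.0243). Without mice 387 and 881 together 2 members rose in that group, Bid among them, so Bcl2l11 and Bik did not both pass.

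Bad, a BH3-only protein held inactive by survival kinases, varied little (ENSMUSG00000024959, chromosome 19, 6941861 to 6951899, plus strand). Normal thymuses had 18.8 to 26.03 CPM (median 20.6). The medians were 18.4 CPM in untreated p53-/- (12.6 to 25.4), 17.5 in treated p53-/- (9.56 to 21.6) and 18.5 in treated p53+/- lymphomas (15.03 to 25.7), and 17 of 31 were below every normal thymus. The log2 fold changes were -0.35, -0.42 and -0.29, with SEs of 0.16, 0.16 and 0.15 (edgeR adjusted p = 0.0797, 0.0241 and 0.0938). The call in treated p53-/- lymphomas was lost under 7 of 16 alternatives, among them without normal mouse 387 (-0.31, adjusted p = 0.119). Under others the call was gained, in untreated p53-/- lymphomas with DESeq2 (-0.38, adjusted p = 0.0374) and without scaling factors (-0.49, adjusted p = 0.0198), and in treated p53+/- lymphomas without scaling factors (-0.42, adjusted p = 0.0232). Gpr137, which overlaps Bad on the opposite strand, fell by 0.91, 1.16 and 1.14 on the log2 scale. The estimate for Bad was fractional in 35.8% of libraries, and the division of shared reads between the genes was not tested.

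Bmf, the BH3-only protein tied to the cytoskeleton, and Bik, a BH3-only protein of the endoplasmic reticulum, were scattered on both sides of normal thymus. Bmf (ENSMUSG00000040093, chromosome 2, 118528757 to 118549687, minus strand) had 29.2 to 155.8 CPM in normal thymuses (median 83.8), and medians of 81.4 in untreated p53-/- (11.1 to 235.6), 49.5 in treated p53-/- (18.6 to 157.2) and 78.8 in treated p53+/- lymphomas (48.7 to 146.9). Its log2 fold changes were 0.06, -0.80 and -0.29, with SEs of 0.43, 0.43 and 0.42 (edgeR adjusted p = 0.932, 0.119 and 0.59), and the first was -0.11 without mouse 881. Above every normal thymus lay 3 lymphomas and below every one 4, or 9 without normal mouse 387, which had the lowest Bmf of its group. In single-biopsy tumours the value in treated p53-/- lymphomas passed (-1.12, edgeR adjusted p = 0.0422). Bik (ENSMUSG00000016758, chromosome 15, 83526862 to 83544634, plus strand) was near the limit of detection, at 0.773 to 2.06 CPM in normal thymuses (median 1.21). Its lymphomas spanned 0.845 to 14.1 CPM (untreated p53-/-), 0.254 to 16.8 (treated p53-/-) and 0.0788 to 7.40 (treated p53+/-), so that 15 of 31 were above and 7 below every normal thymus. The log2 fold changes of Bik were 1.77, 1.65 and 0.64, with SEs of 0.76, 0.75 and 0.70 (edgeR adjusted p = 0.0592, 0.0646 and 0.46). Bik passed under 7 of 16 alternatives in untreated p53-/- lymphomas (DESeq2 among them, 1.75, adjusted p = 0.0391) and under 3 of 16 in treated p53-/- lymphomas (DESeq2, 1.65, adjusted p = 0.0399). The values depended on the model, at 0.70, 0.75 and -0.079 with limma voom over all biopsies. Over the 16 alternatives they ran from 0.70 to 2.02, from 0.26 to 1.79 and from -0.079 to 0.77.

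Other genes of the death pathways were counted from lists, to be read against the 23.2%, 25.4% and 25.6% of all genes that rose and the 17.5%, 26.6% and 25.3% that fell, and against the median log2 fold changes of all genes given above. Of 13 further Bcl2 family genes 11 were tested (Hrk and Bcl2l10 were not), and 1 rose and 1 fell in untreated p53-/-, 3 fell in treated p53-/- and none was called in treated p53+/- lymphomas, with list medians of -0.03, -0.39 and -0.14. Bbc3 (Puma) fell in both p53-/- groups, with log2 fold changes of -1.45 (edgeR adjusted p = 0.0399) and -2.39 (adjusted p = 0.00076), and its value in treated p53+/- lymphomas was -1.06 (adjusted p = 0.0961). Pmaip1 (Noxa) fell in treated p53-/- lymphomas, at -1.65 (edgeR adjusted p = 0.0177), and its values in the other groups were -0.59 and -0.078. Whether the groups differ in these genes was not tested here. Both are named after their values were seen. The Bcl2a1 copies, which are near-identical, had values between -1.01 and 0.89 that did not pass.

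Among 16 caspase genes and their controllers 3, 4 and 5 rose and 2, 5 and 5 fell in the 3 groups, with medians of 0.26, 0.08 and 0.22, and these shares lie near those of all genes. Diablo, which frees caspases from their inhibitors, rose in all 3 (log2 fold changes 0.51, 0.84 and 0.66), as did Casp2 (0.64, 0.44 and 0.50). Casp6 (-1.02, -1.14 and -0.88) and Cycs, the gene of cytochrome c (-0.86, -1.15 and -0.96), fell in all 3. Of 8 genes of the death receptor pathway, which are receptors, a ligand, adaptors, a kinase and a regulator of caspase-8, 0 rose and 3, 5 and 4 fell, with medians of -0.31, -0.76 and -0.67. Those that fell in every group were the receptor Fas (-2.30, -1.83 and -1.79), Cflar, an inhibitor of caspase-8 (-0.81, -1.15 and -1.02), and the receptor Tnfrsf1a (-0.97, -0.97 and -1.01). The receptor Tnfrsf10b was not called, at 0.24, 0.62 and 0.32. Among 12 regulators of the members 2, 2 and 3 rose and 0, 2 and 1 fell, with medians of 0.24, -0.21 and -0.10. Vdac2, which holds Bak1 at the mitochondrial membrane, rose in each group (0.74, 1.04 and 1.097). Foxo3, a forkhead factor, had -0.47, -0.63 and -0.54 and fell in both treated groups (edgeR adjusted p = 0.00872 and 0.0167), while Foxo1 had 0.16, -0.58 and -0.25 and was not called. For the genes named as called in all 3 groups, the edgeR adjusted p-values ran from 7.9e-07 to 0.0427.

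Whether doxycycline or the remaining p53 allele went with a different level was asked in a fit of the lymphomas alone, over 16389 genes. edgeR called 0 of the 10 members in treated against untreated p53-/- tumours, 0 in p53+/- against p53-/- tumours after treatment, and 0 in treated p53+/- against untreated p53-/- tumours, a pair that differs in both. The share of all genes called was 0% in each. At an unadjusted p under 0.05 the numbers of members were 3, 2 and 0, and of genes 1918, 864 and 1039. DESeq2 called 89, 22 and 10 genes and voom 39, 1 and 1, with 0 members in each. The 3 members in the first comparison were Bcl2l2 (log2 fold change -1.44, SE 0.58, unadjusted p = 0.018, edgeR adjusted p = 0.347), Mcl1 (-0.34, SE 0.16, 0.0365, adjusted 0.403) and Bmf (-0.96, SE 0.45, 0.0387, adjusted 0.406). In the second they were Bcl2, higher in treated p53+/- than in treated p53-/- lymphomas (1.21, SE 0.46, unadjusted p = 0.0136, adjusted p = 0.934 by edgeR), and Mcl1 (0.33, SE 0.14, unadjusted p = 0.0274, adjusted p = 0.941). Values that miss the threshold do not show equal levels. The SE of these differences ran from 0.14 for Mcl1 to 0.77 for Bik on the log2 scale. Mice labelled male made up 9 of 10, 4 of 9 and 3 of 12 of the groups, and sex was a term of the fit.

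Lymphomas differed among themselves far more in some members than in others. The SD of log2 CPM over the 31 tumours was 0.32 for Bad and 0.33 for Mcl1, 0.43 for Bak1, 0.66 for Bcl2l11, 0.73 for Bid, 0.90 for Bcl2l1, 1.02 for Bmf, 1.07 for Bcl2l2, 1.14 for Bcl2 and 1.74 for Bik. The median was 0.50 over 11268 genes with a mean log2 CPM of 2 or more, which Bik (1.03 in lymphomas) did not reach. A smaller SD than that of Mcl1 was found in 11.5% of these genes, and a smaller one than that of Bcl2 in 89.9%. Single tumours combined extremes. Mouse 157 (untreated p53-/-) had the highest Bcl2 (71.3 CPM) and Bmf (235.6) of all lymphomas with Bcl2l11 at 196.7, and mouse 869 (treated p53-/-, with sex genes against its label) the highest Bcl2l1 (184.2) and Bik (16.8). Mouse 266 had the highest Bcl2l11 (242.9) with the lowest Bid (9.85).

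The biopsies of the 13 multifocal tumours were compared between and within tumours. All 10 members differed among tumours at an adjusted p under 0.05 in the edgeR F test of the mouse term over 54 biopsies, where 94.1% of 19126 genes did, so this count lies near the background. The share of variance in log2 CPM that lay between tumours was 92.6% for Bcl2l2, 92.0% for Mcl1, 91.3% for Bid, 87.6% for Bcl2l11, 85.9% for Bcl2l1, 82.4% for Bmf, 82.3% for Bik, 74.2% for Bcl2, 64.4% for Bak1 and 48.4% for Bad. The median was 74.3% over 11018 genes with a mean log2 CPM of 2 or more in these biopsies. Bad was thus below the share of most genes, since 9.18% of them had a smaller one, and its SD was 0.24 within and 0.23 between tumours.

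Mcl1 had the smallest SD within tumours of the 10 members (0.10 in log2 CPM), and its highest biopsy exceeded its lowest by no more than 1.37-fold (mouse 881). The tumours with the lowest and the highest Mcl1 were those of mouse 857, with 107.6 to 123.8 CPM over its biopsies, and of mouse 894, with 294.4 to 315.0. Most of the tumours between these extremes overlapped one another. Bid, Bak1, Bad and Bcl2l11 stayed within 2-fold in all 13 tumours too. Bcl2 did not, and its biopsies spread over more than 2-fold in 7 of 13 tumours, with a median range of 2.01-fold and a largest of 5.89-fold. Bik spread over more than 2-fold in 8 tumours, Bcl2l1 in 4, Bmf in 3 and Bcl2l2 in 2.

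Apart from ranges of Bik that rest on 1 or 2 counts in a biopsy, the widest differences between regions were found in a pair of treated p53+/- tumours. In mouse 908 biopsy 3 had 118.8 CPM of Bcl2, above the highest normal thymus, and biopsies 5, 7 and 9 had 31.3, 27.2 and 20.2. The T-lineage sums of these 4 biopsies were 4218, 4009, 4637 and 3604 CPM and the B-lineage sums 60, 85.4, 147.4 and 303.1, so the biopsy highest in Bcl2 was lowest in B-lineage genes. Its stromal and endothelial sum was the highest (843.6 CPM against 324.1, 543.3 and 543.7) and its fat sum the lowest (53.4 against 100.1, 201.3 and 437.1). In mouse 884 biopsy 2 had 0.576 CPM of Bik (7 counts), whereas biopsies 5, 6 and 8 had 13.4, 9.32 and 13.1 CPM, a range of 23.3-fold. The same biopsy 2 had the most Bcl2l1 (55.2 CPM against 20.4, 26.6 and 15.9) and Bcl2 (30.9 against 6.98, 25.9 and 7.77). Bmf, like Bcl2, was higher in biopsies 2 and 6 (67.8 and 81.6 CPM) than in biopsies 5 and 8 (21.4 and 16.5 CPM). The T-lineage sum was 5037 CPM in biopsy 2 and 3303, 3827 and 3096 in biopsies 5, 6 and 8, and the B-lineage sum 208.6 against 37.5, 36.2 and 54.4. The stromal and endothelial sum was 523 CPM in biopsy 2 and 1317, 1522 and 1146 in the others, so biopsy 2 was highest in both lymphoid sums and lowest in the stromal sum. The part of cell mixture in these differences was not tested.

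**Figure D4:**
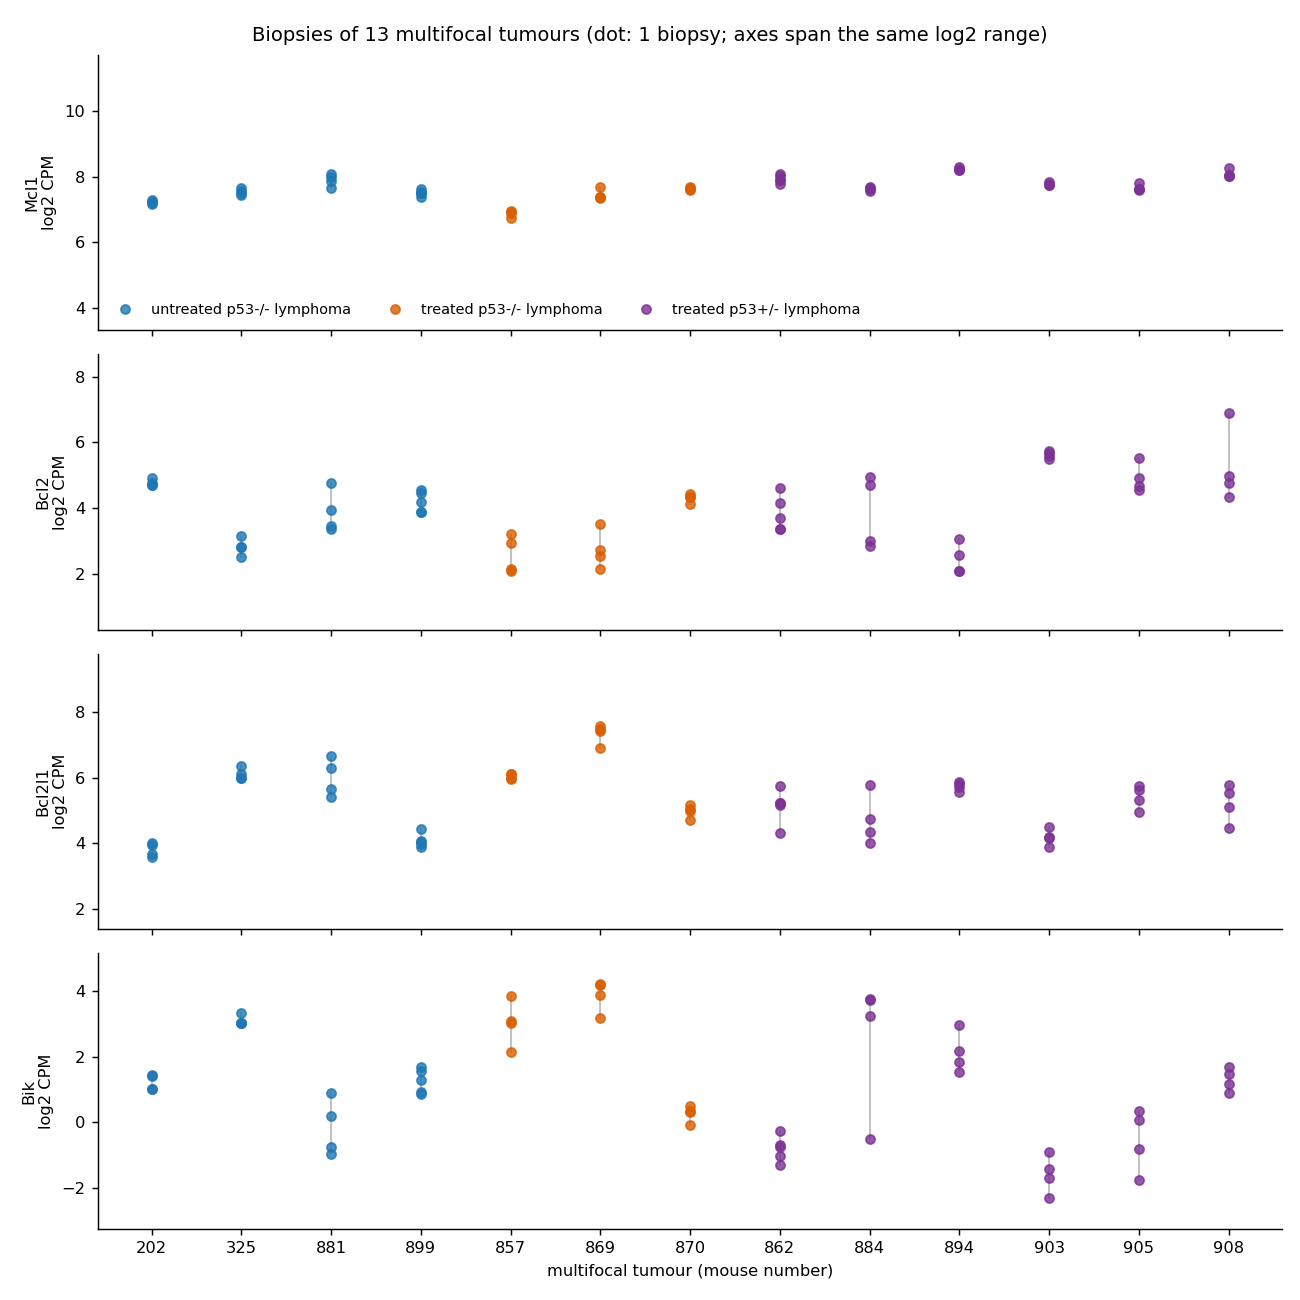
Level of Mcl1, Bcl2, Bcl2l1 and Bik (log2 CPM, each vertical axis spanning the same range) in the biopsies (dots) of 13 multifocal tumours (mouse numbers, horizontal axis), coloured by group. Biopsies of Mcl1 lie together in every tumour, and those of Bcl2 in mouse 908 and of Bik in mouse 884 lie far apart.

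Each member was next set beside the other genes of its chromosome, since the median expression of whole chromosomes varied from lymphoma to lymphoma. These medians are expression and not copy number. For each mouse the log2 ratio of a gene to the normal thymus mean was centred on the median of 14877 autosomal genes, and the chromosome value was the median over its other genes. Bid, on chromosome 6, averaged 0.81 (SD 0.71, n = 31) although its chromosome averaged -0.37 (SD 0.10), and it was above its chromosome in 30 of 31 lymphomas. Bcl2l2, on chromosome 14, averaged -2.16 (SD 1.04) against 0.33 (SD 0.27), and it was below in 29 of 31. Bcl2l1 lay below chromosome 2 in 31 of 31, at -1.86 against 0.06, and Bcl2 below chromosome 1 in 30 of 31, at -1.98 against 0.03. Mcl1 averaged -0.74 and chromosome 3 -0.17, and Mcl1 was below its chromosome in 30 of 31. Bad averaged -0.34 and chromosome 19 -0.28, and Bad was below its chromosome in 18 of 31 and above it in 13.

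Bad also followed its chromosome from tumour to tumour. Over 31 lymphomas Pearson's r was 0.62 (permutation p = 0.0004, adjusted 0.004 over the 10 members) and Spearman's rho 0.43 (permutation p = 0.0173, adjusted 0.0652). Without the 2 mice farthest from the median, r was 0.41, and within the lymphoma groups it was 0.58, 0.79 and 0.64. For Bcl2l1 and chromosome 2, r was 0.51 (permutation p = 0.00356, adjusted 0.0178) and rho 0.50 (permutation p = 0.00528, adjusted 0.0528), with 0.56 without the 2 farthest mice and 0.28, 0.85 and 0.60 within the groups. In the 18 single-biopsy tumours r was 0.54 for Bcl2l1, which no longer passed (adjusted permutation p = 0.0511). The rank correlations of both genes missed the threshold after adjustment. The other 8 members had r between -0.30 and 0.38 and did not pass. Over all 14877 genes the median r of a gene with its own chromosome was 0.29, with 25% of genes above 0.48, and those of Bad and Bcl2l1 lie above that value.

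**Figure D5:**
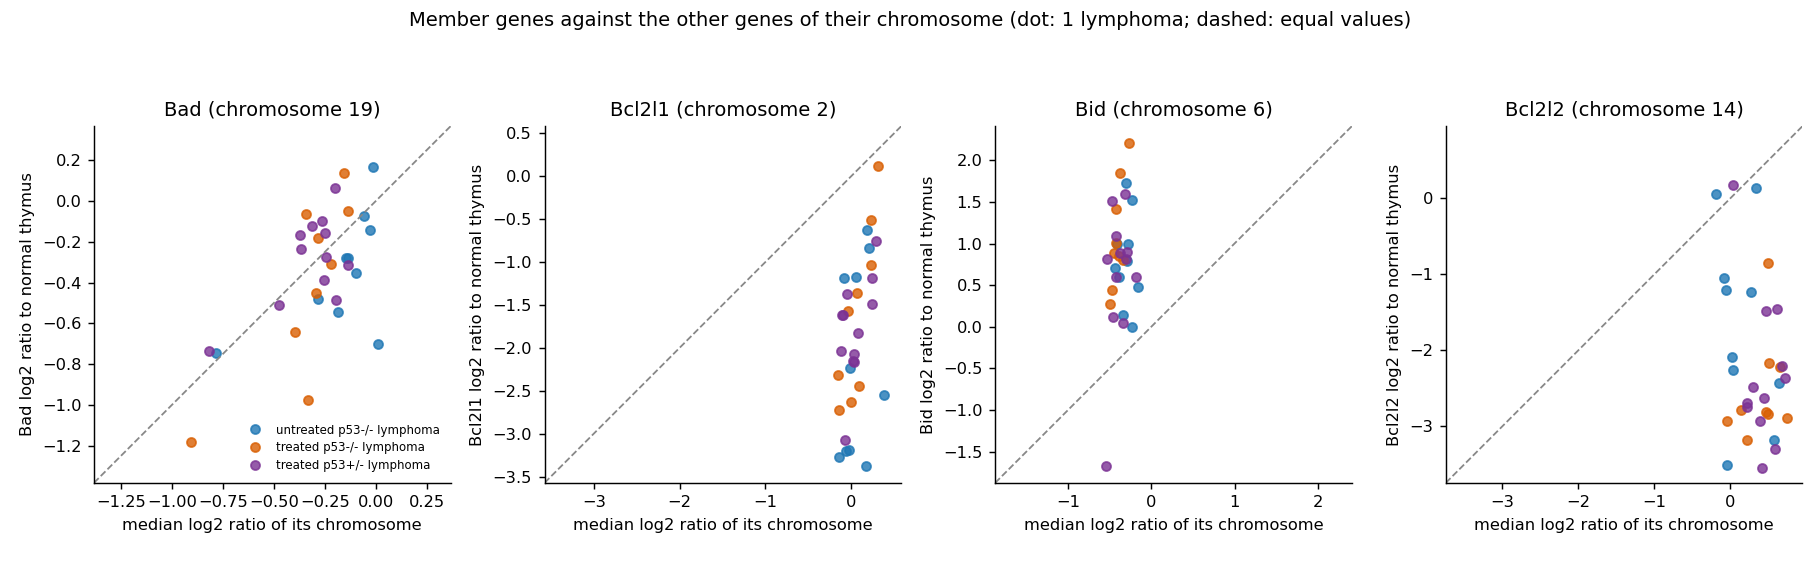
Log2 ratio to normal thymus of Bad, Bcl2l1, Bid and Bcl2l2 (vertical axes) against the median log2 ratio of the other genes on the same chromosome (horizontal axes) in 31 lymphomas (dots), with a dashed line of equal values. Bad lies around the line, Bcl2l1 and Bcl2l2 lie below it in 31 and 29 of 31 lymphomas, and Bid lies above it in 30.

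Among the 45 pairs of members 1 passed across the 31 lymphomas. Mcl1 and Bmf varied together, with r of 0.60 (permutation p = 0.00033, adjusted 0.0148 over the pairs) and rho of 0.57 (permutation p = 0.00095, adjusted 0.0427). The value was 0.68 without the 2 mice farthest from the median of Mcl1 and 0.71 in untreated p53-/- lymphomas, but 0.25 and 0.26 in treated p53-/- and treated p53+/- lymphomas. Whether the groups differ in this relation was not tested. In the 18 single-biopsy tumours it was 0.65 (adjusted permutation p = 0.0661). Bcl2l1 and Bmf came next, with r of 0.52 (permutation p = 0.00257, adjusted 0.0578). Bcl2 and Bcl2l1 and the other pairs of survival genes did not pass.

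The genes whose levels ran most like those of each member over the 31 lymphomas were sought by Pearson's r among 9776 genes whose mean log2 CPM was 3 or more. For Mcl1 they were Slc29a3 and Midn (r of 0.82 and 0.78), for Bcl2l1 Pibf1 and Stx6 (0.82 and 0.80), for Bcl2 Etv5 and Tecpr1 (0.72 and 0.72) and for Bcl2l2 Cyfip1 and Irf8 (0.81 and 0.75). For Bid they were Armc1 and Ippk (0.80 and 0.78), for Bak1 Pdlim4 and Snx4 (0.72 and 0.68) and for Bik Ifngr1 and Cog6 (0.72 and 0.66). Bcl2l11 ran most like Nrip1 and Zeb1 (0.78 and 0.76) and Bmf like Akap12 and Mbd1 (both 0.80). For Bad they were Mrpl49 and Brms1 (both 0.75), and 17 of its 20 nearest genes lay on chromosome 19, which holds 3.39% of the genes searched. No other member had more than 4 of its 20 nearest genes on its own chromosome.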

How the data were processed

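RSEM's expected counts, which need not be whole, were deposited by the authors in 1 table with 51826 genes and 81 libraries, not scaled between libraries. The submitters' processing notes name CASAVA 1.8, fastp, STAR 2.7.2b, RSEM 1.1.17 and build mm10. Strand use in counting is not given in the sources used here. Of all values 14.25% were not whole, and they were rounded. Coordinates and exon lengths came from GENCODE M21 on GRCm38, the same assembly as mm10, which held 99.63% of the gene IDs. Biopsies of a mouse were summed.

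Tests used edgeR 4.0.16 in R 4.3.3 (TMM, filterByExpr by group, robust quasi-likelihood fits, labelled sex as a covariate), over all genes. One fit held p53+/+ normal thymuses and lymphomas, another the lymphomas alone, and the last the 54 biopsies of multifocal tumours. Log2 CPM used a prior count of 2. Correlations used two-sided permutation tests (scipy 1.17.1, 100000 resamples). DESeq2 1.42.0, limma 3.58.1 and changes of scaling, filter and samples were alternatives. The labels name no sequencing batch, and the groups share no replicate numbers. Low counts limit the precision for Bik, with as few as 1 count in a library.

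Members and lists were chosen with earlier results of these data known. All 10 members are named, and from each list the genes called in the same direction in all 3 contrasts whose mean log2 CPM was 2 or more (at most 3 rises and 3 falls); others are named after their values were seen, and 1 gene that the rule names is not reported here. The filter by group replaced a filter by the design matrix after results of both were seen.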

Additional observations from a re-analysis of the deposited data

Results flagged for a closer look

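In the normal thymuses, mouse 387 lay apart from the other 7 in 3 members. Its Bcl2l1 level was the lowest, at 6.02 log2 CPM with the next mouse at 7.14, and its Bcl2l11 level was the lowest, at 4.74 with the next at 5.72. Its Bcl2l2 level was the highest, at 5.37 with the next at 4.395. The same animal had the fewest T-lineage and the most B-lineage, fat and stromal marker counts of its group. Among treated p53-/- lymphomas, mouse 490 had the highest Bcl2l2 level, at 3.48 log2 CPM with the next at 2.27. Each of these gaps was larger than Dixon's 95% limit for the size of its group. In all 30 groups of 8 to 10 mice were examined, and chance alone marks about 1 in 20.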

How the results depend on the processing

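The alternatives left the direction of Bcl2, Bcl2l1, Mcl1, Bcl2l2, Bcl2l11, Bid and Bad against normal thymus unchanged in all 3 contrasts. The values of Bcl2l1 and Mcl1 stayed past the threshold in all 3, and so did those of Bcl2 except with 1 biopsy per tumour in treated p53+/- lymphomas. Members called numbered 3 to 7, 5 to 7 and 5 to 7 in the 3 contrasts with normal thymus, the 7 in the first group coming without mouse 881, and 0 between lymphoma groups throughout. All 10 members differed among multifocal tumours under each alternative. The sign turned for values near 0. Bak1 in untreated p53-/- lymphomas was at -0.038 without scaling factors, and in treated p53-/- lymphomas it was at -0.053 with voom, -0.050 without scaling factors, -0.00089 without the 2 shallowest libraries and -0.0076 with the p53+/- normal thymus added. Bmf in untreated p53-/- lymphomas was at -0.38 with voom, -0.093 without scaling factors, -0.11 without mouse 881 and -0.11 without mice 387 and 881. Bik in treated p53+/- lymphomas was at -0.079 with voom, and its r with its chromosome was -0.072 in single-biopsy tumours. Without centring 5 members passed against their chromosomes in place of 2 (Bcl2, Mcl1 and Bmf were added), and in single-biopsy tumours 3 did (Bcl2, Bad and Bmf). Without scaling factors 2 pairs passed (Bcl2l1 with Bmf was added), without mouse 881 also 2 (Bcl2l11 with Bmf), and in single-biopsy tumours the 1 pair was Bcl2l11 with Bid. The causes were not tested. Without scaling factors the median gene moved from 0.08 to -0.05 in untreated p53-/- and from -0.00 to -0.12 in treated p53+/- lymphomas. Genes called in untreated p53-/- lymphomas then split into 3106 higher and 3548 lower (3438 and 4364 with voom) in place of 4138 and 3131, and members into 0 and 4 in place of 1 and 3. With the filter set by the design matrix, and chosen after the data were seen as were the alternatives without mouse 881, members split into 3 and 3, 2 and 4, and 3 and 4. Depth limits Bik and Bcl2l2, the members with the fewest counts. No paired analysis was possible because the groups compared share no replicate numbers.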

Other observations

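The normal thymus of the untreated p53+/- animal (mouse 819), left out of the main comparisons, lay within the range of the 8 p53+/+ thymuses for all 10 members. Its survival genes stood at 59.5 CPM for Bcl2, 156.8 for Bcl2l1, 339.5 for Mcl1 and 20.34 for Bcl2l2. Bak1 stood at 69.1 CPM, Bcl2l11 at 63.4, Bid at 31.9, Bad at 20.98, Bmf at 95.6 and Bik at 1.88. Its fat marker sum of 116.2 CPM was below the lowest p53+/+ thymus (680.6), and its T-lineage sum of 5063 was near their median.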
